A study of Homo sapiens with 2 samples.

Results

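Human chromosomes 3, 13, 14 and 15 held few of the sites called for ASH1 (gene symbol ASH1L) in K562, an established human chronic myelogenous leukaemia cell line. The members are all peaks of both deposited lists on these 4 chromosomes, 54 of 910 peaks of replicate 1 (5.93%) and 357 of 4646 peaks of replicate 2 (7.68%), 411 of 5556 in all. The chromosomes were chosen by their measured number of peaks for their length in these same lists, so their low counts are a description and are not tested here. The study had 1 group of 2 chromatin immunoprecipitation sequencing (ChIP-seq) samples of untreated K562 cells grown in DMEM with fetal calf serum. Both used rabbit antibodies raised against the C-terminal end of ASH1, batch 1 in replicate 1 and batch 3 in replicate 2, so that batch and replicate cannot be told apart. Each value below comes from 1 list, with no repeat of either antibody batch, and the intervals given are 95% intervals that cover counting error only. Copy number of the chromosomes in these cells, sequencing depth and input chromatin were not analysed here, and their part in the results was not tested.

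ASH1 belongs to the trithorax group, proteins first known for keeping genes active against silencing by Polycomb proteins. Its SET domain methylates a lysine of histone H3 that is also marked along transcribed genes. Chromosomes 13, 14 and 15 are acrocentric: their centromere lies close to one end, and the short arm beyond it carries satellite DNA and arrays of ribosomal RNA genes that the hg19 assembly does not resolve. Chromosome 3 is a long chromosome with its centromere near the middle. Chromosome 13 is among the gene-poorest of the human autosomes, and all 4 alternate between light Giemsa bands, rich in genes and GC, and dark bands, which are poor in both. Peaks were not assigned to genes, since no hg19 gene positions were used. Genes named with a band below are background on that band and not peak targets.

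Each peak has a score from the authors' peak caller, read from its form as 10 times the negative log10 of a p-value, which ranks peaks within a list. Replicate 1 ends at a score of 50.03 and replicate 2 at 70.02. No member reached the cap that the scores of both lists have. Length was counted from the start of the q arm on chromosomes 13, 14, 15, 21 and 22 and in full on the others. By that count the 4 chromosomes span 468.6 Mb, and 0 member peaks lay in the short arms left out.

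In replicate 1 there was 1 peak per 8.68 Mb on these chromosomes, against 1 per 2.79 Mb on the other 18 autosomes, or 0.115 and 0.359 peaks per Mb (ratio 0.32, interval 0.24 to 0.42). In replicate 2 there was 1 per 1.31 Mb against 1 per 0.569 Mb, or 0.762 and 1.76 peaks per Mb (ratio 0.43, 0.39 to 0.48). Chromosome 3 held 23 replicate 1 and 119 replicate 2 peaks. Chromosome 13 held 10 and 114, chromosome 14 held 14 and 63, and chromosome 15 held 7 and 61. Chromosome 13 was thus among the sparsest in replicate 1 and the densest of the 4 in replicate 2, at 0.103 and 1.17 peaks per Mb.

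With the short arms left out, the 4 chromosomes were not in both lists the 4 with the lowest density. In replicate 1 the order from the bottom was 15 (0.0838), 13 (0.103), 3 (0.116), 8 (0.143) and 14 (0.156 peaks per Mb). In replicate 2 it was 3 (0.601), 14 (0.702), 15 (0.730), 4 (1.12) and 13 (1.17 peaks per Mb). The intervals of chromosomes 8 and 14 overlapped in replicate 1 (0.0888 to 0.219 and 0.0853 to 0.262), as did those of 4 and 13 in replicate 2 (0.979 to 1.29 and 0.967 to 1.41). Chromosomes 3, 14 and 15 in replicate 2 also overlapped each other and lay below chromosome 4.

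**Figure D1:**
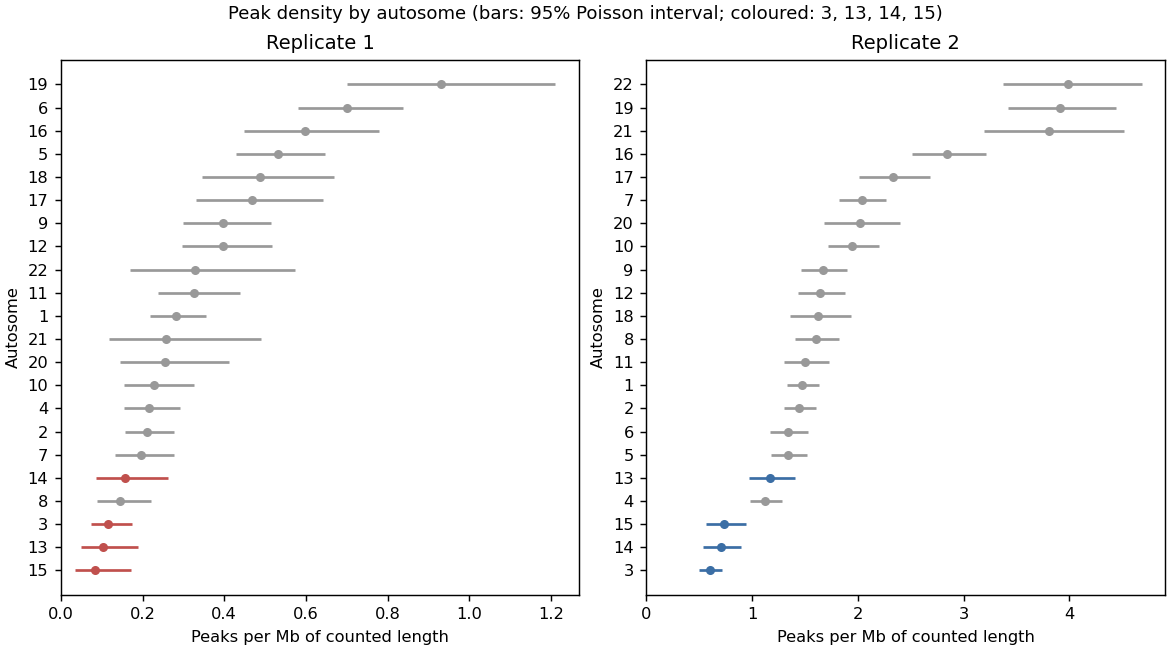
Peaks per Mb of counted length (x axis) for each of the 22 autosomes (y axis, sorted), replicate 1 on the left and replicate 2 on the right, with 95% Poisson intervals as bars. The coloured points are chromosomes 3, 13, 14 and 15: chromosome 8 stands between them in replicate 1 at 0.143 and chromosome 4 in replicate 2 at 1.12 peaks per Mb.

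Most of each chromosome was empty at a scale of 1 Mb. Of 473 bins of 1 Mb, 36 held a replicate 1 peak (7.61%) and 179 a replicate 2 peak (37.8%), against 20.7% and 56.3% of the bins of the other autosomes. Neither list had a peak in 288 bins (60.9%, against 40.1% elsewhere). These differences follow in part from the low number of peaks, by which the chromosomes were chosen. Bins without a peak in either list made up 52.5% of chromosome 13 and 53.5% of chromosome 9, which is not a member. Of the 36 bins with a replicate 1 peak, 30 also held a replicate 2 peak (83.3%), which is 16.8% of the 179. On the other autosomes 402 bins held both, 82.9% of those with a replicate 1 peak and 30.5% of those with a replicate 2 peak. The shares of replicate 2 bins are limited by the number of bins with a replicate 1 peak, 36 here and 485 elsewhere. On chromosomes 13 and 15 all 5 replicate 1 bins of each were occupied in replicate 2. Shared peaks, those that overlap a peak of the other list by at least 1 bp, lay in 20 bins.

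The fullest bins were not the same in the 2 lists. In replicate 1 the fullest bin was 91000001 to 92000000 of chromosome 13 (13q31.3, 5 peaks), followed by 4 bins of 3 peaks in 3p26.1, 3p23 and 14q12. The 10 fullest bins held 27 of the 54 replicate 1 peaks (50.0%). In replicate 2 the fullest was 114000001 to 115000000 of chromosome 13 (13q34, 17 peaks), and 2 other bins of 13q34 and the bin 38000001 to 39000000 of chromosome 3 held 9 each. A bin of 15q12 (27000001 to 28000000) held 8. The 10 fullest bins held 83 of the 357 replicate 2 peaks (23.2%).

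**Figure D2:**
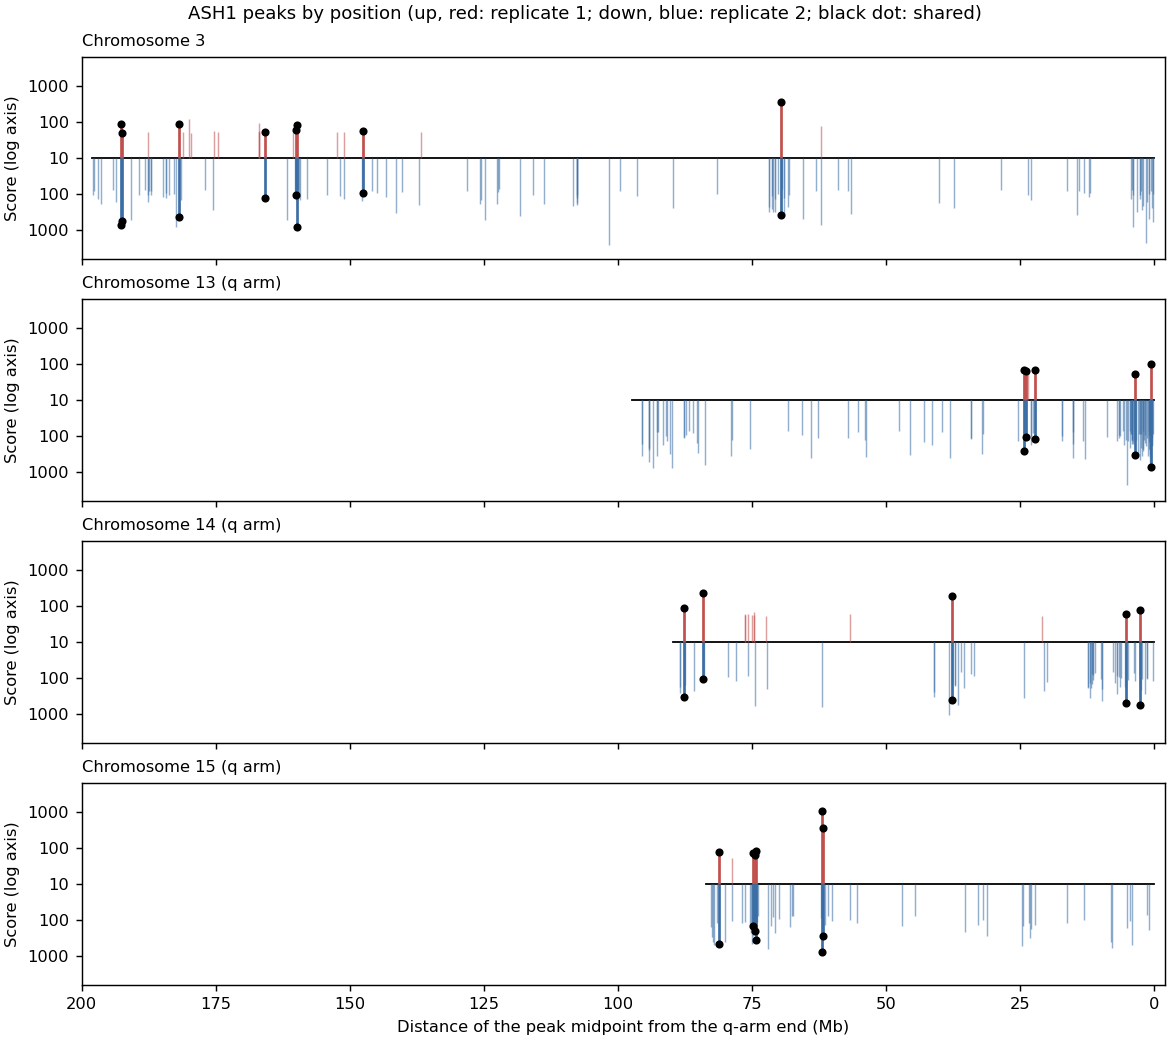
Each line is 1 peak, placed by the distance of its midpoint from the q-arm end in Mb (x axis, the end on the right), 1 panel per chromosome, with line length giving the score on a log axis that starts at 10. Replicate 1 points up (red), replicate 2 down (blue), and a black dot marks a shared peak. Replicate 1 leaves the whole of chromosome 15 beyond 15q15.1 empty, and replicate 2 crowds the right-hand end of chromosome 13.

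On chromosome 3 the replicate 1 peaks lay on the short arm. The p arm, 46.0% of the length, held 21 of the 23 (91.3%), or 0.231 peaks per Mb (0.143 to 0.353), and the q arm held 2, or 0.0187 per Mb (0.00226 to 0.0675). Replicate 2 had 65 peaks on the p arm and 54 on the q arm, 0.714 (0.551 to 0.910) and 0.505 per Mb (0.379 to 0.658). The intervals of the 2 arms did not overlap in replicate 1 and did in replicate 2.

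The replicate 1 list had no peak from 61236313 to 128444369, a stretch of 67.2 Mb across the centromere from 3p14.2 to 3q21.3. Replicate 2 had 28 peaks there, among them the highest-scoring of all members, at 96335608 to 96337437 in 3q11.2 (score 2527.46, width 1830 bp). No replicate 1 peak lay closer to it than 32107 kb. A second empty stretch of replicate 1 ran from 135854909 to the q-arm end, 62.2 Mb in which replicate 2 had 33 peaks. Of these, 18 lay in 3q29, the last band, with scores from 75.72 to 2306.38. In replicate 2 the longest empty stretches were 141524149 to 157946304 (16.4 Mb, 3q23 to 3q25.32) and 116544998 to 126220670 (9.68 Mb, 3q13.31 to 3q21.3), and replicate 1 had 0 peaks in either.

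The replicate 2 peaks of chromosome 3 formed several groups. The band 3q21.3 held 12 peaks in 2.87 Mb, with a median score of 245.8, and 3p22.2 held 10 in 0.942 Mb. The single shared site of the q arm lay in 3q21.3 (128444370 to 128445134), at a score of 354.16 in replicate 1 and 374.11 in replicate 2. In 3p22.2 there were 2 shared sites, of which the higher (38125298 to 38126329) scored 84.28 and 807.62. The band 3p26.1 held 2 more, at 5280567 to 5281529 (85.22 and 719.52) and 5582199 to 5583022 (50.87 and 571.66). In 3p21.31, a band dense in genes, replicate 1 had 3 peaks and replicate 2 had 4, of which 1 was shared.

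Parts of 3p were marked in replicate 1 and sparse in replicate 2. The dark band 3p24.3 held 5 replicate 1 peaks, 0 of them shared, and 3 replicate 2 peaks in 7.5 Mb. They include the highest unshared replicate 1 peak of the 4 chromosomes (18079745 to 18081302, score 120.16), 1530 kb away from replicate 2's closest. The light band 3p23 held 3 replicate 1 peaks within 19.3 kb, with scores of 95.41, 54.94 and 51.82, and 0 replicate 2 peaks. They lay between 1052 and 1070 kb from a replicate 2 peak. These 2 bands hold 8 of the 15 unshared replicate 1 peaks of chromosome 3, which had 23 peaks in that list. The bands described here and below, as distinct from single peaks and stretches, were picked once their counts were known.

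On chromosome 13 the replicate 1 peaks sat in 2 places. Of the 10 peaks, 8 lay within 2.07 Mb of 13q31.3 (90949722 to 93018853), a dark band that is known to carry the miR-17-92 cluster host gene MIR17HG among few protein-coding genes. The other 2 lay in 13q34, the last band. From the start of the q arm to the first of these, 73.0 Mb or 75.1% of the counted length, replicate 1 had no peak and replicate 2 had 44, with a median score of 141.9 and a highest of 779.93. A further 18.7 Mb between the 2 groups (93018854 to 111696214) was empty in replicate 1 and held 27 replicate 2 peaks. The highest of these, at 110075968 to 110077175 in 13q33.3, scored 2346.88 and lay 1619 kb from any replicate 1 peak.

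The 13q31.3 group had low scores and wide peaks in replicate 1. Its 8 scores ran from 53.26 to 67.9, all below the lowest score of the replicate 2 list, and its widths from 1610 to 5746 bp with a median of 2609 bp. The median over the other autosomes was 925 bp. Replicate 2 had 7 peaks in the same band, with a median width of 2360 bp and scores from 83.6 to 267.06. The 3 shared sites of the band scored 67.9 and 267.06 (90965713 to 90968192), 62.83 and 104.2 (91323553 to 91326660) and 65.92 and 121.35 (93016819 to 93018853). The midpoints of the second pair lay 1165 bp apart, the farthest of all member pairs. The 5 unshared peaks of this band lay between 8.24 and 418.3 kb from a replicate 2 peak.

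Replicate 2 crowded the outer end of the chromosome 13 long arm. The band 13q34 held 47 of its 114 peaks (41.2%), 9.65 per Mb, with scores from 70.14 to 712.54 and a median of 138.5. Next to it 13q33.3 held 8 more. Near the centromere, the bands of 13q12 together held 22 (19.3%), where replicate 1 had 0. Both 13q34 peaks of replicate 1 were shared. The one at 114561305 to 114562499, 608 kb from the end of the chromosome, scored 98.31 in replicate 1 and 712.54 in replicate 2. The one at 111696215 to 111696938 scored 51.47 and 343.9. The replicate 2 peak nearest to the end lay 112 kb from it (115057346 to 115058260, score 90.22). The longest stretches empty in replicate 2 were 7.05 Mb in 13q13.3 to 13q14.13 and 6.62 Mb in 13q31.1 to 13q31.2, both empty in replicate 1 as well.

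On chromosome 14 the middle of the long arm was nearly empty. Replicate 2 had no peak from 45387067 to 66258035 (20.9 Mb, 14q21.2 to 14q23.3, 23.3% of the counted length), the longest such stretch of the 4 chromosomes in that list, and none in the 10.2 Mb before it (35204751 to 45385056). Between these 2 stretches lay a single replicate 2 peak, at 45385057 to 45387066 in 14q21.2 (score 625.62). The only replicate 1 peak in either stretch was at 50685260 to 50686142, with a score of 58.07, 5.30 Mb from any replicate 2 peak. In replicate 1 the longest empty stretch was 50686143 to 69657625 (19.0 Mb), in which replicate 2 had 3 peaks, among them its highest on this chromosome at 69139691 to 69141210 (14q24.1, score 1037.27). Next came 69658708 to 86540512 (16.9 Mb, 9 replicate 2 peaks). Neither list had a peak in the 15.6 Mb from 50686143 to 66258035.

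The lists filled different ends of chromosome 14. In replicate 1, 6 of 14 peaks lay within 1.73 Mb of the dark band 14q12, with scores from 53.99 to 67.76, and 0 of the 6 were shared. Of all replicate 1 peaks under a score of 70, 10 of 37 members and 36.6% on the other autosomes were shared. Replicate 2 had 4 peaks in 14q12. In replicate 2, 35 of 63 peaks lay in the 14q32 bands (55.6% of peaks on 19.6% of the counted length), whose outermost band carries the immunoglobulin heavy chain locus and whose 14q32.2 carries the imprinted DLK1 and MEG3 genes. Of these, 11 lay in 14q32.2, 9 in 14q32.13 and 9 in 14q32.33. Replicate 1 had 2 peaks in 14q32, both shared, at 102149652 to 102150236 (60.23 and 492.81) and 104754999 to 104756040 (78.88 and 569.63). The shared site at 69657626 to 69658707 in 14q24.1 scored 190.0 and 415.29. The 14q11.2 site at 23298457 to 23299571 was one of few that scored higher in replicate 1, 230.41 against 106.41. Also in 14q11.2, the site at 19612732 to 19613630 scored 87.75 and 336.91. Replicate 2 alone had 2 peaks in the centromere band 14q11.1, the first at 19000245 to 19002362 with a score of 178.9.

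On chromosome 15 the peaks of both lists gathered near the centromere. The bands from 15q11.1 to 15q13.3, 17.5% of the counted length, held 5 of the 7 replicate 1 peaks and 29 of the 61 replicate 2 peaks (47.5%). This segment includes the imprinted region of Prader-Willi and Angelman syndromes and is flanked by duplicated sequence. Of the 5, 4 were shared, in 15q11.2 (21347434 to 21349641, scores 76.37 and 463.1), in 15q12 (27720234 to 27721255, 70.25 and 149.72, and 28066344 to 28067196, 63.84 and 208.26) and in 15q13.1 (28344824 to 28345779, 83.4 and 352.28). The only unshared replicate 1 peak of the chromosome, at 23743149 to 23743923, scored 52.07 and lay 177 kb from a replicate 2 peak. Replicate 2 had 4 peaks in the centromere band 15q11.1, where replicate 1 had 0. Its highest unshared peak lay in 15q13.2 (30464604 to 30465855, score 663.46).

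The 2 remaining replicate 1 peaks of chromosome 15 lay 210 kb apart in 15q15.1 and were the highest-scoring of that chromosome. The first (40674500 to 40675604) scored 1047.26 in replicate 1 and 800.01 in replicate 2, and the second (40885591 to 40886761) 341.45 and 285.29. Beyond them replicate 1 had no peak over 61.6 Mb to the q-arm end, 73.8% of the counted length. Replicate 2 had 26 peaks there, 0.422 per Mb against 1.60 per Mb on the 21.9 Mb before. Its longest empty stretches were 57981462 to 67224719 (9.24 Mb) and 47177967 to 55501597 (8.32 Mb).

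Long stretches without a peak took up more of these chromosomes than of the others in replicate 1. Stretches of over 10 Mb covered 79.6% of the counted length there and 52.5% of the other autosomes. The single longest stretch of replicate 1 on any autosome was that of chromosome 13, followed by chromosomes 3 and 8 (67.2 and 63.9 Mb) and chromosome 15. In replicate 2 such stretches covered 10.1% against 4.80%, from chromosomes 3 and 14 only: chromosomes 13 and 15 had none over 10 Mb. Other autosomes had longer ones in replicate 2, up to 24.7 Mb. These shares follow in part from the low number of peaks, which chose the chromosomes.

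Peaks near the q-arm end set the 4 chromosomes apart from each other. The last 5 Mb held 3 of the 54 replicate 1 peaks (5.56%, 1.16 to 15.4%) and 81 of the 357 replicate 2 peaks (22.7%, 18.4 to 27.4%), on 4.27% of the counted length. On the other autosomes the shares were 15.9% (13.5 to 18.6%) and 21.7% (20.4 to 22.97%) on 3.86% of the length. In replicate 2, therefore, the share at the q-arm end was within counting error of that elsewhere, and the density was low both in the last 5 Mb (4.05 against 9.87 peaks per Mb) and outside it (0.615 against 1.43 peaks per Mb), with ratios of 0.41 (0.32 to 0.52) and 0.43 (0.38 to 0.49).

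Chromosome 13 contributed most of these end peaks. In replicate 2 its last 5 Mb held 47 peaks, 9.40 per Mb, a ratio to the other autosomes of 0.95 (0.69 to 1.28), while the rest of its long arm stood at 0.51 (0.39 to 0.65). Chromosome 15 was the opposite: its last 5 Mb held 4 peaks, 0.80 per Mb, the lowest of the 22 autosomes and 0.081 times the density elsewhere (0.022 to 0.21), and the rest stood at 0.51 (0.38 to 0.66). Chromosome 14 was at 0.24 (0.13 to 0.43) in its last 5 Mb and 0.42 (0.31 to 0.55) outside, and chromosome 3 at 0.36 (0.22 to 0.58) and 0.37 (0.30 to 0.45). Without chromosome 13 the replicate 2 share in the last 5 Mb fell from 22.7 to 13.99%. In replicate 1 the last 5 Mb held 2 peaks on chromosome 13, 1 on chromosome 14 and 0 on chromosomes 3 and 15.

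The median distance of the peaks from the q-arm end in replicate 2 was 11.9 Mb on chromosome 14, 13.08 Mb on chromosome 13, 67.5 Mb on chromosome 15 and 113.8 Mb on chromosome 3. Peaks spread evenly would have medians of 44.9, 48.6, 41.8 and 99.0 Mb. In replicate 1 the medians were 74.6, 23.9, 74.5 and 166.9 Mb, so by its median chromosome 14 was end-heavy in replicate 2 and centromere-heavy in replicate 1. That replicate 1 median rests on 14 peaks, of which 6 lay in 14q12 with scores from 53.99 to 67.76. The 5 shared replicate 1 peaks of chromosome 14 had a median of 37.7 Mb. The nearest replicate 1 peak to the end was 0.608 Mb away on chromosome 13, 2.59 Mb on chromosome 14, 61.6 Mb on chromosome 15 and 62.2 Mb on chromosome 3. In replicate 2 these distances were 0.112, 0.188, 0.909 and 0.122 Mb.

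**Figure D3:**
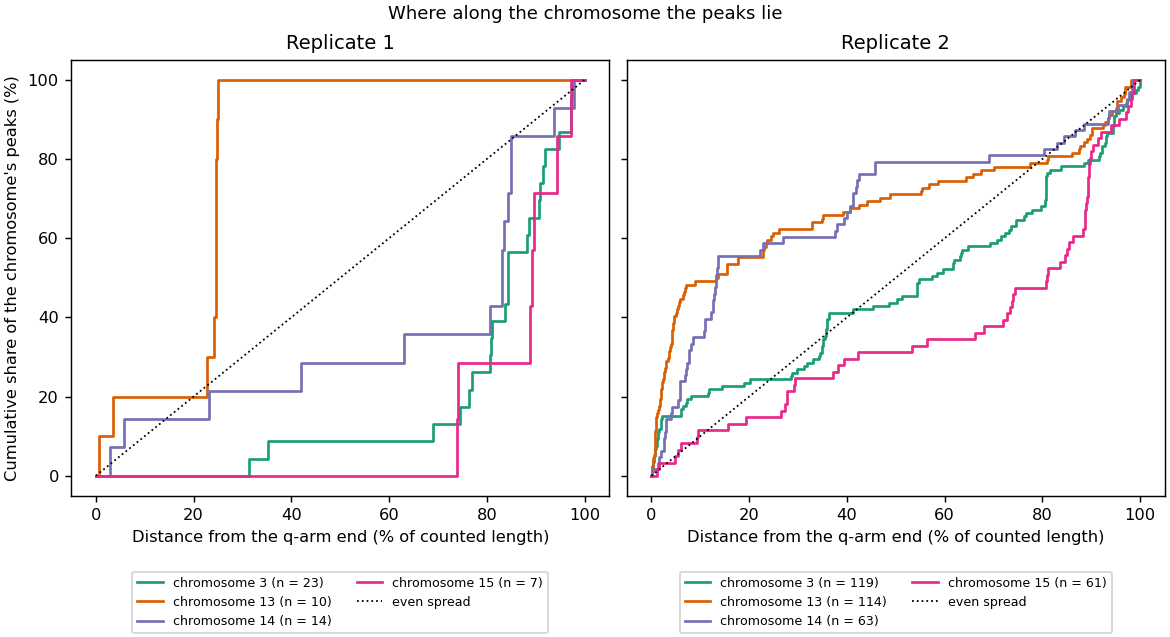
Cumulative share of a chromosome's peaks (y axis, %) against the distance from the q-arm end as a percentage of counted length (x axis), 1 line per chromosome and 1 panel per list, with an even spread dotted. In replicate 2 the 50% of the length nearer to the q-arm end holds 71.1% of the chromosome 13 peaks, 79.4% of those of chromosome 14, 43.7% of those of chromosome 3 and 31.1% of those of chromosome 15.

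Sharing between the lists was not itself part of the choice of chromosomes. The replicate 2 share is limited, though, by the number of replicate 1 peaks, which was. There were 54 of these beside 357 replicate 2 peaks on the members, and 836 beside 4096 elsewhere. The replicate 2 comparison is therefore not independent of the choice. Of the member peaks 24 of 54 in replicate 1 were shared (44.4%, 30.9 to 58.6%) and 24 of 357 in replicate 2 (6.72%, 4.35 to 9.84%), where the whole lists stand at 51.8% and 9.99%. On the other autosomes 432 of 836 (51.7%) and 425 of 4096 (10.4%) were shared. Neither difference passed Fisher's exact test after Benjamini-Hochberg adjustment over the 2 lists (two-sided, odds ratio 0.75, adjusted p = 0.33 in replicate 1, and odds ratio 0.62, p = 0.028, adjusted p = 0.055 in replicate 2). The replicate 2 difference passed with an overlap of at least 50% of the shorter peak (6.44 against 10.4%, Fisher's exact test, adjusted p = 0.034), so that call turns on the setting. Neighbouring peaks are not independent, and these p-values describe the 2 lists only.

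By chromosome, the shared replicate 1 peaks were 8 of 23 on chromosome 3, 5 of 10 on chromosome 13, 5 of 14 on chromosome 14 and 6 of 7 on chromosome 15 (85.7%, 42.1 to 99.6%). In replicate 2 they were 8 of 119 on chromosome 3 (6.72%) and 5 of 114 on chromosome 13 (4.39%). Chromosome 14 had 5 of 63 (7.94%) and chromosome 15 had 6 of 61 (9.84%). The chromosome 13 share was the lowest of the 22 autosomes in replicate 2, where its 10 replicate 1 peaks limit how many of the 114 can be shared. Within each list the intervals of the 4 chromosomes overlap. The replicate 1 score went with sharing here as in the rest of the list: 10 of 37 peaks under 70 were shared and 14 of 17 of at least 70, and all 4 of at least 200. On the other autosomes 191 of 522, 241 of 314 and all 36 were shared in these classes. In replicate 2 the 4 member peaks with a score of at least 1000, in 3q11.2, 3q29, 13q33.3 and 14q24.1, were all unshared, as were 42 of 62 on the other autosomes. Among the 29 of at least 500, 6 were shared (20.7%), against 125 of 311 on the other autosomes (40.2%).

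Of the 24 shared pairs, 3 lay within 5 Mb of the q-arm end (12.5%, on 4.27% of the counted length), 2 on chromosome 13 and 1 on chromosome 14. These are all 3 of the replicate 1 members in that zone. On the other autosomes 114 of 432 pairs lay there (26.4%). On chromosomes 3 and 15 the closest pair lay 69.6 and 61.6 Mb from it. Shared sites were absent from 78.0 Mb of chromosome 3 (50397606 to 128444299), where the lists had 1 and 34 peaks of their own, and from 46.4 Mb of chromosome 14 (23299588 to 69657625), with 8 and 10. The midpoints of the pairs lay a median of 68.5 bp apart (93.5 bp elsewhere).

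Replicate 2 scored higher in 21 of the 24 pairs, with a median score ratio of 3.55 (quartiles 1.72 and 6.82, range 0.46 to 11.24). The ratio on the other autosomes had a median of 4.10 (2.66 and 6.43). The 3 pairs with the higher score in replicate 1 were both 15q15.1 sites and 23298457 to 23299571 of 14q11.2, and the 3q21.3 pair was nearly equal at 1.06. These 4 had the 4 highest replicate 1 scores of all members, from 230.41 to 1047.26. Of the remaining 20 pairs, 1 scored over 100 in replicate 1, the 14q24.1 site. Library depth is unknown, and the ratio describes the lists and not occupancy.

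**Figure D4:**
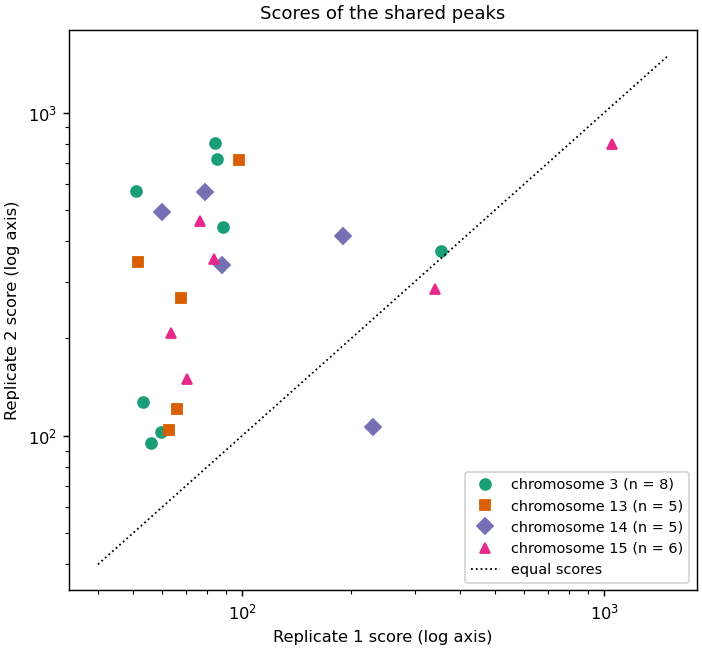
Replicate 1 score (x axis) against replicate 2 score (y axis), both on log axes, for the 24 shared pairs, with symbols for the chromosome and equal scores dotted. Below the dotted line lie 3 pairs, 2 from chromosome 15 and 1 from chromosome 14, and the pair just above it is that of 3q21.3.

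In their scores the members were much like the other autosomes. Median scores were 57.8 in replicate 1 (quartiles 53.1 and 78.7) and 138.5 in replicate 2 (98.1 and 248.6), against 61.8 (54.4 and 81.9) and 148.8 (95.6 and 265.2). Chromosome 3 had the lowest median of the 22 autosomes in replicate 1 (54.9) and the second lowest in replicate 2 (127.0). Chromosome 15 had the second highest in replicate 1 (76.4). Peaks of at least 1000 made up 4 of 357 replicate 2 members and 62 of 4096 peaks elsewhere.

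Widths set chromosome 13 apart in replicate 1. Its median was 2490 bp, the highest of the autosomes, against 824 bp on chromosome 3, 835 bp on chromosome 14 and 1022 bp on chromosome 15. Of its 10 peaks 7 were at least 2 kb wide, all in 13q31.3, and only 1 other member of replicate 1 was, in 15q11.2 (2208 bp). In replicate 2 the medians were 950 to 987 bp on all 4 chromosomes and 1073 bp elsewhere. There, 9 of the 24 chromosome 13 peaks in the darkest bands were at least 2 kb wide, and 4 of its 90 other peaks were.

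**Figure D5:**
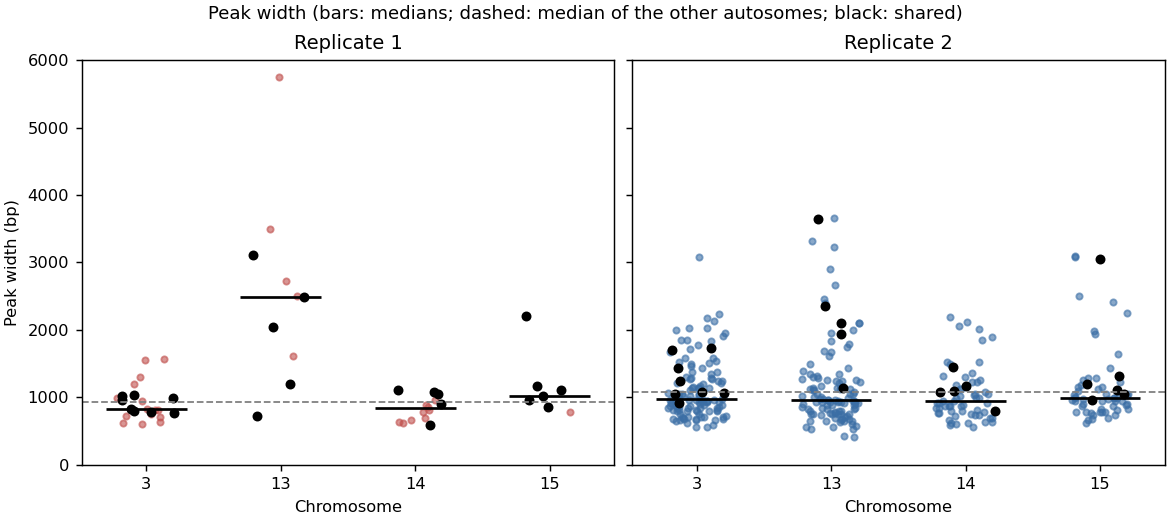
Width in bp (y axis) of each member peak by chromosome (x axis), replicate 1 on the left and replicate 2 on the right, with medians as bars, shared peaks in black and the median of the other autosomes dashed. The chromosome 13 peaks of replicate 1 reach 5746 bp, and their median of 2490 bp lies above the dashed line at 925 bp.

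One class of bands, the darkest by Giemsa stain, held a large share of the low-scoring replicate 1 members. It makes up 16.4% of the counted length and held 21 of the 54 (38.9%, 25.9 to 53.1%), against 9.45% (7.55 to 11.6%) on the other autosomes. Of the 21, 8 lay in 13q31.3, 6 in 14q12, 5 in 3p24.3 and 1 each in 14q21.3 and 14q31.3, so 3 bands hold most of them, and 18 of the 21 were unshared. Among all replicate 1 peaks under a score of 70, 27 of 37 members and 331 of 522 peaks on the other autosomes were unshared. Of the 21, 1 scored at least 70, the 3p24.3 peak of 120.16. Limited to such scores, the share was 1 of 17 members (5.88%, 0.149 to 28.7%) and 6.05% elsewhere, so the difference between 38.9 and 9.45% rests on the peaks below that score. The next darkest class held 0 replicate 1 members (0 to 6.60%) on 15.05% of the length, against 4.55% of the peaks elsewhere. In replicate 2 the darkest class held 34 members (9.52%, 6.69 to 13.05%), against 3.88% (3.31 to 4.52%) elsewhere. Of these, 24 were on chromosome 13, and without that chromosome the share was 4.12% (1.99 to 7.44%). Light bands held 48.1% and 58.8% of the members on 43.4% of the length, against 63.8% and 65.5% elsewhere. Centromere bands held 0 replicate 1 members and 11 replicate 2 members, 5 of them in 3p11.1.

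Neighbouring peaks were far apart. The median distance from 1 peak to the next was 1.17 Mb in replicate 1 (0.604 Mb elsewhere) and 349 kb in replicate 2 (149.8 kb elsewhere). Wide spacing and few close neighbours follow in part from the low number of peaks, by which the chromosomes were chosen. Of the 4, chromosome 13 had the highest share of close neighbours: 39 of its 113 neighbouring pairs in replicate 2 lay within 100 kb (34.5%), against 19 of 118 on chromosome 3 (16.1%). The share on the other autosomes was higher still, 41.0%. Unshared replicate 1 members lay a median of 269 kb from a replicate 2 peak, and 1 of the 30 lay within 10 kb of one.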

How the data were processed

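Peaks of 2 ASH1 ChIP-seq samples of K562 cells were analysed, which form 1 group. The authors used BWA and MACS, per the submitters' processing notes. What version, settings or control they used is not given in the sources here. The deposited score of each peak is the authors' own value, and peaks were called per sample. The notes name hg19 and GRCh38, and 0 peaks end beyond an hg19 chromosome. Positions are hg19 and 1-based. Depth is unknown.

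Lengths and bands of hg19 came from circlize 0.4.16, and a peak belongs to the bin and band of its midpoint. Shares have 95% Clopper-Pearson intervals, densities Poisson intervals and density ratios exact conditional intervals. Sharing was compared with Fisher's exact test. The procedures were tested on simulated data. The members and regions were chosen with earlier results of these data known. For naming, the rule took the 3 best-ranked shared sites per chromosome, the highest unshared peak of each list, the 2 longest empty stretches, the 5 fullest bins of each list and the peaks nearest to the q-arm end and to the start of the q arm; other regions were added after their values were seen. Genes could not be assigned and no sequence is shown, since the gene and promoter tables have GRCh38 positions. Tools were pandas 2.3.3, Python 3.11.15, matplotlib 3.10.9, scipy 1.17.1 and numpy 2.4.6.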

Additional observations from a re-analysis of the deposited data

How the results depend on the processing

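The alternatives that leave out a chromosome, and those for the darkest bands, were chosen after seeing the data. The replicate 2 share of members that overlap the other list stayed below that of the other autosomes in all 8 alternatives and passed the adjusted threshold of Fisher's exact test in 3: at 6.44% with an overlap of 50% of the shorter peak required, 6.997% with peaks closer than 10 kb merged and 6.08% without chromosome 15. Without chromosome 13 that share was 7.82% against 10.4% elsewhere (Fisher's exact test, adjusted p = 0.28). The number of replicate 1 peaks, part of the choice of chromosomes, limits the replicate 2 share in every alternative. Its low value in them is therefore no separate support. At scores of 70 or more in both lists, the replicate 1 difference changed sign, to 82.4% of 17 members against 76.8% elsewhere. The density ratio of members to other autosomes kept within its interval in all alternatives (0.27 to 0.32 in replicate 1, 0.39 to 0.45 in replicate 2), and the mean of both lists, 0.38, was 0.32 to 0.43 when 1 list was left out. Density in these same lists chose the chromosomes, so its low value in the alternatives is a description and no separate support. The score limit of 70 leaves replicate 2 unchanged, since its lowest score is 70.02. Leaving out 1 list gives the ratio of the other. The replicate 2 share at the q-arm end was 10.9% in a zone of 2 Mb, 29.7% in one of 10 Mb and 13.99% without chromosome 13. Its mean over both lists was 5.56 to 22.7% with 1 list left out. Bins with a replicate 1 peak fell from 36 to 16 at scores of at least 70, and their mean of 107.5 over both lists was 36 to 179 with 1 list left out. The longest empty stretch of replicate 1 was 96.7 Mb at that score. The replicate 1 share in the darkest bands, 38.9% against 9.45% elsewhere, was 5.88% against 6.05% at scores of 70 or more. The share of overlapping peaks has no value with 1 list left out. No paired analysis was possible because both samples form a single group. Depth is unknown, and a site in 1 list alone was not called in the other, whose signal there was not analysed here.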
